A study of Mus musculus with 75 samples.

Results

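The data compare livers of chow-fed mice with and without the cannabinoid receptor CB1 when both had been given AM251, a synthetic inverse agonist of that receptor. Liver arrays whose titles name lean knockout mice dosed with AM251 formed the first group (5 arrays, mice 20 to 24). Arrays titled lean wild-type mice dosed with AM251 formed the second (5 arrays, mice 8, 10, 11, 12 and 13). These are 10 of the 75 arrays of the study, 39 of which are from liver and 36 from epididymal fat. The knockouts are homozygous CB1R-/- males on a C57BL/6 background, with littermates as wild type. Both groups ate regular chow with 13% of energy from fat for 14 weeks from 2 months of age. Both then received AM251 at 10 mg per kg by gavage, once a day at 5 pm over 2 days, and were killed at 10 am after the second dose. No group of this comparison is therefore free of the compound. The labels give no tissue restriction of the deletion. The 3 neighbouring comparisons used below set knockout against wild-type mice in chow-fed liver under vehicle (0.5% methylcellulose, 5 and 5 arrays), in liver of mice on a high-fat diet (59.4% of energy from fat) under AM251 (5 and 5), and in chow-fed fat under AM251 (3 and 5).

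CB1, encoded by Cnr1, is a receptor coupled to inhibitory G proteins that responds to endogenous lipid ligands, the endocannabinoids. It is most abundant in brain, and in liver it has been linked to fat synthesis and insulin response. AM251 binds CB1 and lowers its basal activity, so a comparison between genotypes under AM251 asks how mice without the receptor differ from mice in which it is blocked.

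Of 19147 genes measured, 62 differed between the genotypes at an adjusted p under 0.05 (limma, Benjamini-Hochberg), which is 0.324% of them. In knockouts 52 genes were lower (0.272%) and 10 were higher (0.0522%), while 2604 genes had an unadjusted p under 0.05 and the median difference of all genes was 0.04 on the log2 scale. The lower genes differed by 1.3-fold to 1.81-fold, with a median of 1.51-fold, and included regulators of membrane traffic, RNA processing and chromosome structure. The higher genes were led by the metallothionein gene Mt1, at 6.55-fold, and included the glutathione transferase gene Gstm4. Genes of cholesterol synthesis, fatty acid synthesis, fatty acid oxidation and gluconeogenesis had no member past the threshold. The count depended on which arrays were fitted and how they were weighted. It was 96 with only these 10 arrays in the fit, with 32 of the 62 among them. Array weights gave 275, and leaving out knockout vehicle mice 15 and 17 gave 252. The count also depended on single mice: it ran from 8 without wild-type mouse 13 to 88 without wild-type mouse 8. It was 10 without knockout mouse 23, 17 without wild-type mouse 11, 20 without knockout mouse 21 and 21 without wild-type mouse 10.

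Each of the 10 arrays correlated with the remaining liver arrays at 0.989 to 0.992 on average, which is no measure of RNA quality. Hepatocyte markers had a median at the 99.4th percentile of all genes in liver. Levels are log2 of the deposited intensity of the brightest probe set of a gene, and differences are knockout minus wild type on that scale, with the standard error (SE). Cnr1 had log2 intensities of 5.95, 5.79, 5.60, 5.91 and 5.83 in the knockouts and of 5.82, 5.70, 5.85, 5.66 and 5.59 in wild-type mice. The groups overlapped, and the difference was 0.09 ± 0.11 (SE, limma adjusted p = 0.755). A second, dimmer probe set had means of 2.72 ± 0.04 and 2.58 ± 0.07 (SD, n = 5 each). Its knockouts, at 2.69 to 2.79, all lay above its wild-type mice, at 2.46 to 2.66. The knockout mean of this probe set was also the higher in the vehicle and high-fat liver pairs. Where these probes lie, inside or outside the deleted stretch, is unknown, and the values therefore do not check the genotype.

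The falls of 6 genes held in every fit that left out 1 of the 10 mice. They are Ube2v2, Eea1, Taok1, Pggt1b, Hnrnpa3 and Prpf39, and they are shown first for that reason. The other called genes each lost the call in at least 1 of those fits. Ube2v2 encodes the inactive partner subunit of the ubiquitin-conjugating enzyme Ubc13. Its log2 intensities were 5.10, 5.30, 4.98, 5.24 and 5.34 in knockout mice 20 to 24 and 5.85, 5.84, 6.12, 5.87 and 6.40 in wild-type mice 8, 10, 11, 12 and 13. All 5 knockouts lay below all 5 wild-type mice, and mouse 13 was the highest. The difference was -0.82 ± 0.14 (SE, limma adjusted p = 0.00584), or 1.77-fold. Eea1 encodes the tether of early endosomes. Its values were 7.74, 7.92, 8.08, 7.81 and 8.17 in knockouts and 8.42, 8.46, 8.69, 8.41 and 8.84 in wild-type mice. Again no knockout reached the lowest wild-type mouse, and the difference was -0.62 ± 0.10 (SE, limma adjusted p = 0.00584).

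Taok1 encodes a protein kinase of the stress-activated and Hippo pathways. The knockouts had log2 intensities of 6.62, 6.30, 6.56, 6.08 and 6.54, and the wild-type mice 6.87, 7.03, 6.96, 6.91 and 7.45. The groups did not overlap, and wild-type mouse 13 stood above the other 4 of its group. The difference was -0.62 ± 0.11 (SE, limma adjusted p = 0.00596). Hnrnpa3, an RNA-binding protein of the heterogeneous nuclear ribonucleoproteins, had values of 8.11, 8.04, 8.10, 7.81 and 8.13 in knockouts and 8.71, 8.61, 8.88, 8.52 and 8.69 in wild-type mice. These groups did not overlap either, and the difference was -0.64 ± 0.11 (SE, limma adjusted p = 0.00596). Of its other probe sets, 1 was at -0.63 ± 0.13 and the other at 0.05 ± 0.17, so the fall was not seen by every probe set of the gene.

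The last pair overlapped between genotypes. Pggt1b encodes the beta subunit of the prenyl transferase that attaches geranylgeranyl anchors to small GTPases. Its values were 6.54, 6.23, 6.58, 6.48 and 6.92 in knockouts and 7.11, 7.27, 7.24, 6.88 and 7.35 in wild-type mice. Knockout mouse 24 was above wild-type mouse 12, and the difference was -0.62 ± 0.11 (SE, limma adjusted p = 0.00627). Prpf39, a splicing factor associated with the U1 particle, had 5.71, 5.69, 5.94, 5.64 and 6.26 in knockouts and 6.47, 6.69, 6.40, 6.08 and 6.59 in wild-type mice. Mouse 24 was again the highest knockout and mouse 12 the lowest wild-type mouse, and the difference was -0.60 ± 0.11 (SE, limma adjusted p = 0.00627).

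**Figure D1:**
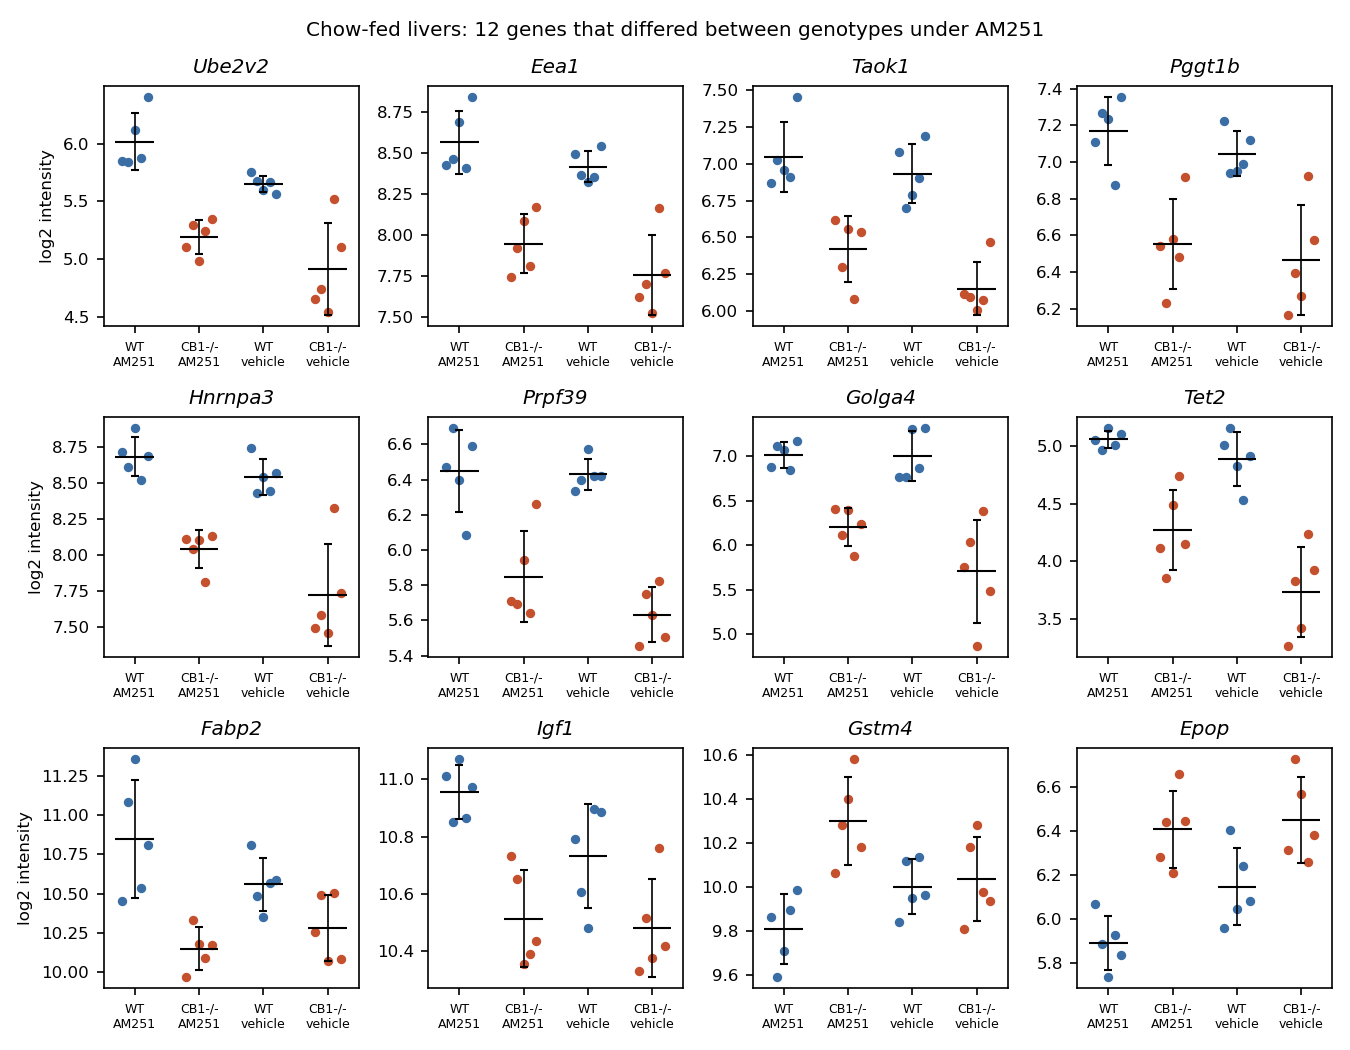
Log2 intensity (vertical axes, each with its own range) of 12 genes in chow-fed livers, with 1 point per mouse, a horizontal line at the group mean and bars of 1 SD; blue points are wild-type and red points knockout mice, under AM251 (left pair of each panel) and vehicle (right pair). For Ube2v2 the AM251 knockouts lie between 4.98 and 5.34 and the AM251 wild-type mice between 5.84 and 6.40.

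The 52 lower genes were sorted by what their products are known to do. This sorting was made after their values were seen, and no enrichment of a role was tested. Beside their count, 362 of all genes (1.89%) had all 5 knockouts below all 5 wild-type mice, as had 42 of the 52.

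Membrane traffic accounted for 10 of the 52, with differences between -0.81 and -0.45. Golga4, a golgin that tethers vesicles at the trans-Golgi network, had values of 6.40, 6.12, 6.39, 5.88 and 6.24 in knockouts and 6.88, 7.11, 7.07, 6.85 and 7.18 in wild-type mice. The groups were separate, and the difference was -0.81 ± 0.18 (SE, limma adjusted p = 0.0266). Other Golgi genes were Arl1, a small GTPase that recruits golgins (-0.63), the membrane protein gene Golim4 (-0.45) and Rab1a, the GTPase of transport from the endoplasmic reticulum to the Golgi (-0.47). On the endocytic side, Rab5a, the GTPase to which Eea1 protein binds, was at -0.59 ± 0.13 (limma adjusted p = 0.0266). Hook1, which links endosomes to microtubules, was at -0.69, and the endocytic adaptors Reps2 and Fnbp1l were at -0.58 and -0.52. Osbpl8, a lipid transfer protein at contacts between endoplasmic reticulum and plasma membrane, was at -0.65.

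RNA processing and translation accounted for 13 genes, between -0.70 and -0.39. Upf2, a core factor of nonsense-mediated decay, had log2 intensities of 6.32, 6.80, 6.68, 6.35 and 6.69 in knockouts and 7.17, 7.32, 7.33, 7.15 and 7.36 in wild-type mice. No value was shared between the groups, and the difference was -0.70 ± 0.15 (SE, limma adjusted p = 0.0224). Zfc3h1, a factor that directs nuclear RNA to the exosome, was at -0.66. Splicing-related members were the kinase gene Clk4 (-0.56), Zranb2 (-0.51), Arglu1 (-0.55) and Rsrc2 (-0.62). The deadenylase genes Pan3 and Cnot7, whose products shorten poly(A) tails, were at -0.61 and -0.50. Eif4e, the cap-binding protein of translation initiation, was at -0.43, and Nars, the cytosolic asparaginyl-tRNA synthetase, at -0.51.

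Chromatin and chromosome genes made up 8 of the 52. Tet2 encodes an enzyme that oxidises methylcytosine in DNA. Its values were 4.12, 3.86, 4.49, 4.75 and 4.15 in knockouts and 5.05, 4.97, 5.16, 5.01 and 5.11 in wild-type mice. The groups were separate, with a difference of -0.79 ± 0.16 (SE, limma adjusted p = 0.0142). The cohesin subunit gene Smc3 was at -0.52, Smc5 of the complex that resolves recombining chromosomes at -0.57, and Rmi1 of the complex that dissolves DNA crossovers at -0.48. A second probe set of Rmi1 was at 0.19 ± 0.10. The chromatin-binding protein gene Psip1 was at -0.63 and the histone methyltransferase gene Kmt5b at -0.46. The zinc finger genes Zkscan8 and Zfp760 were at -0.70 and -0.67.

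Signalling genes numbered 6 and ubiquitin genes 4. Gnai3, the alpha subunit of an inhibitory G protein of the class through which CB1 signals, was at -0.45 ± 0.10 (SE, limma adjusted p = 0.0257). Plcb1, a phospholipase C that is activated by other G proteins, was at -0.52 ± 0.10 (SE, limma adjusted p = 0.0142). Its other probe sets were at -0.19 ± 0.18 and -0.12 ± 0.13 (SE), with unadjusted limma p of 0.295 and 0.329. The actin regulators Daam1 and Ppp1r9a were at -0.62 and -0.69. Beside Ube2v2, the ubiquitin genes were Uchl5, a proteasome-bound deubiquitinase (-0.47), Xiap, an inhibitor of caspases (-0.49), and Ube2cbp (-0.53).

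Of the 62 genes, 6 were dim, with a mean over liver arrays below 4.785, the median of all probe sets: Slc5a3, Tet2, Ube2cbp, Best2, Nckap5l and Tas2r129. They were not tested when dim genes were removed.

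Metabolic genes and secreted factors numbered 6, and none of them overlapped between genotypes. Slc5a3, the sodium-dependent myo-inositol transporter, had the largest fall by value but is a dim gene: its values were 4.03, 3.70, 4.46, 4.06 and 4.58 in knockouts and 4.93, 5.04, 4.78, 5.22 and 5.13 in wild-type mice. That is -0.85 ± 0.19 (SE, limma adjusted p = 0.031), or 1.81-fold, and the call was lost in 7 of the 10 fits that left out 1 mouse (highest adjusted p = 0.139). Fabp2, the intestinal-type fatty acid-binding protein, had 9.97, 10.33, 10.18, 10.09 and 10.17 in knockouts and 10.45, 11.08, 11.36, 10.54 and 10.81 in wild-type mice. Wild-type mice varied more than knockouts, and the difference was -0.70 ± 0.14 (SE, limma adjusted p = 0.0142). The aldehyde oxidase gene Aox3 had 11.21, 11.31, 11.01, 10.97 and 11.14 against 11.57, 11.81, 11.82, 11.83 and 11.90. Wild-type mouse 8 was the lowest of its group, and the difference was -0.66 ± 0.13 (SE, limma adjusted p = 0.0142). The peroxisomal glycolate oxidase gene Hao1 was at -0.47 and Higd1a, a mitochondrial protein induced by low oxygen, at -0.50.

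Igf1, the growth factor that the liver secretes in response to growth hormone, had log2 intensities of 10.73, 10.65, 10.35, 10.39 and 10.43 in knockouts. Wild-type mice had 11.01, 10.85, 11.07, 10.87 and 10.97. The groups did not overlap, and knockout mouse 20 came closest to the lowest wild-type mouse, mouse 10. The difference was -0.44 ± 0.10 (SE, limma adjusted p = 0.0384), and the call was lost in 9 of the 10 fits that left out 1 mouse (highest adjusted p = 0.130). Ghr, the growth hormone receptor, had 11.98, 12.03, 12.07, 11.80 and 12.21 in knockouts and 12.34, 12.37, 12.41, 12.28 and 12.54 in wild-type mice. All knockouts lay below all wild-type mice, but the gene did not pass (-0.37 ± 0.11, SE, limma adjusted p = 0.116). Of 13 measured genes of growth hormone signalling, Igf1 was the 1 that passed, and the list median was -0.07; it was 0.11 without knockout mouse 24 and 0.09 without wild-type mouse 12. Of 10 male-biased liver genes, many of which depend on the male pattern of growth hormone, none passed, all 10 had values below 0 and the median was -0.35. Ugt2b38 was at -1.66 and Cyp7b1 at -0.70, neither past the threshold. Of 13 female-biased genes none passed, and the median was 0.07.

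The 10 higher genes were dominated by Mt1. Metallothioneins are small cysteine-rich proteins that bind zinc and copper and are induced by metals, glucocorticoids and oxidative stress. Metal induction runs through short metal response elements in the promoter, so the 250 bases before the start of each of the 2 genes are shown, from RefSeq (GRCm38.p6, plus strand). Capitals mark matches to the core letters of that element, TGCACNC or TGCGCNC, on either strand. Matches that overlapped each other were each counted.
Mt1 (chr8:94178839-94179088): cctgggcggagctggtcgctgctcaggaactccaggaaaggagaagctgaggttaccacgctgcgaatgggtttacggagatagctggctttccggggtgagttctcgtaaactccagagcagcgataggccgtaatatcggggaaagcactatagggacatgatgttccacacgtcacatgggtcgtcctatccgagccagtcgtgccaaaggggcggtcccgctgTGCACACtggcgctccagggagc
Mt2 (chr8:94172368-94172617): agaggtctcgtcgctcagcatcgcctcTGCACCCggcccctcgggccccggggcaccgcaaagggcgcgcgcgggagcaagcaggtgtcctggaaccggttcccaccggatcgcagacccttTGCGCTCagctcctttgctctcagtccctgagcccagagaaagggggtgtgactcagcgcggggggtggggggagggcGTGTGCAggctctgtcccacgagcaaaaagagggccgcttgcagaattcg
The Mt1 window held 1 match, which ended 17 bases before the start. The Mt2 window held 3, and the one nearest the start ended 44 bases before it. Among 32851 RefSeq promoters of the same length, 21.4% held at least 1 match and 1.26% at least as many as Mt2. A match describes the letters only. Bases outside these windows, after the annotated start included, were not searched. The counts therefore do not give the number of such elements at either gene.

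Mt1 had log2 intensities of 10.99, 10.95, 10.06, 12.83 and 13.20 in knockout mice 20 to 24. The wild-type mice 8, 10, 11, 12 and 13 had 10.94, 8.32, 8.53, 8.29 and 8.38. Knockout mice 23 and 24 were the highest, and wild-type mouse 8 stood apart from its group at the level of the lower knockouts, so that the groups overlapped. The difference was 2.71 ± 0.57 (SE, limma adjusted p = 0.0234). It was lost in 6 of the 10 fits that left out 1 mouse, where the difference stayed between 2.31 and 3.22 and the adjusted p reached 0.107, without knockout mouse 23. Mt2 had 8.56, 9.83, 9.36, 12.99 and 12.78 in knockouts and 9.71, 7.64, 8.11, 7.70 and 7.51 in wild-type mice. The same mice 23, 24 and 8 stood out, and Mt2 did not pass (2.57 ± 0.68, SE, limma adjusted p = 0.0837). The 2 genes have similar sequences, and cross-hybridisation between their probes was not tested.

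**Figure D2:**
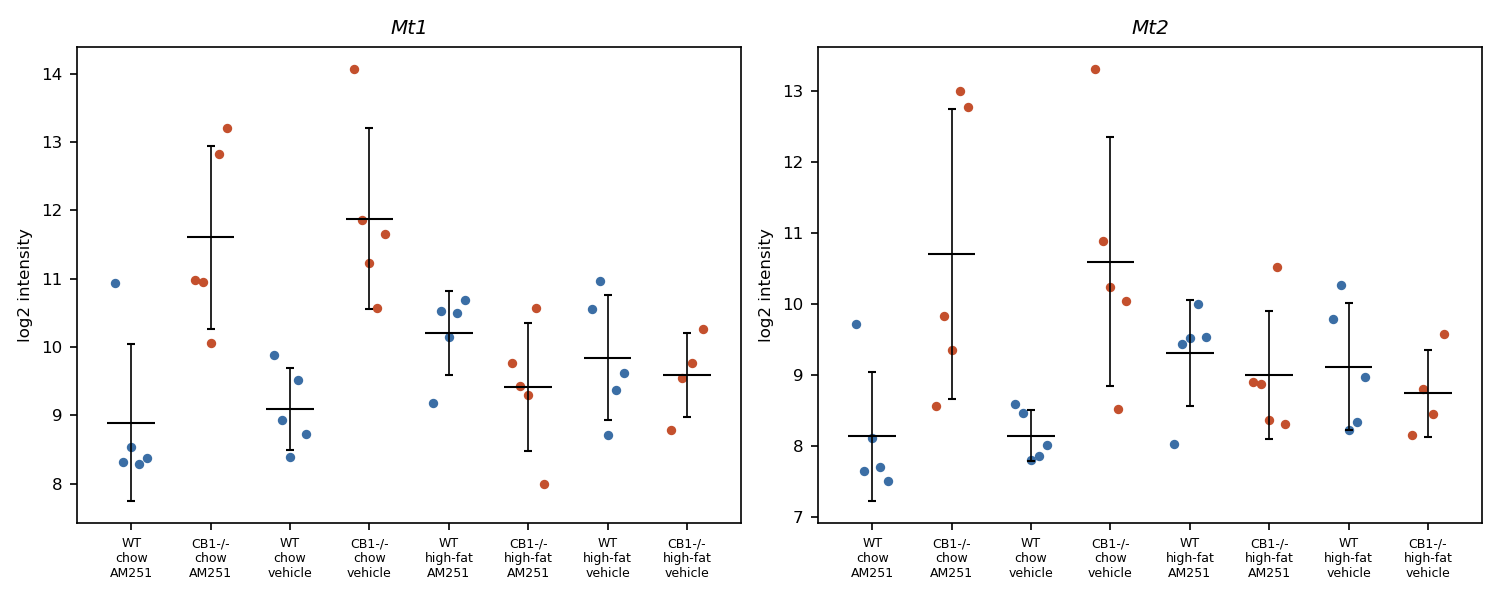
Log2 intensity (vertical axes) of Mt1 and Mt2 in the 8 liver groups, with 1 point per mouse, lines at the group means and bars of 1 SD; blue points are wild-type and red points knockout mice. Under AM251 on chow the Mt1 means are 11.60 in knockouts and 8.89 in wild-type mice, against 9.41 and 10.21 on the high-fat diet.

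Metallothioneins were listed with glucocorticoid targets, of which 14 were measured. Mt1 passed and the others did not, and the list median was 0.31. The glucocorticoid-induced immunophilin gene Fkbp5 was at 0.84 ± 0.34 (SE, limma adjusted p = 0.250) and Nr3c1, the glucocorticoid receptor, at -0.37 ± 0.11 (adjusted p = 0.118).

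The other higher genes rose by less. Epop, which binds the Polycomb repressive complex and elongin, had 6.28, 6.44, 6.21, 6.66 and 6.44 in knockouts and 6.07, 5.89, 5.74, 5.93 and 5.84 in wild-type mice. The groups were separate and the difference was 0.51 ± 0.10 (SE, limma adjusted p = 0.0142). Best2, a bestrophin anion channel, had 4.51, 4.86, 4.60, 4.35 and 4.42 against 4.20, 4.08, 4.12, 4.13 and 3.70. Wild-type mouse 13 was low, the groups were separate and the difference was 0.50 ± 0.09 (SE, limma adjusted p = 0.0100). Ints5, a subunit of the Integrator complex that processes small nuclear RNA, was at 0.44, the AMPK-related kinase gene Nuak1 at 0.36 and Nckap5l at 0.35. The bitter taste receptor gene Tas2r129 was at 0.45, and the uncharacterised transcripts 4930590G02Rik and 4930405A21Rik were at 0.46 and 0.38. Of the 10 higher genes, 8 had all knockouts above all wild-type mice, as had 330 of all genes (1.72%).

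Gstm4, a mu-class glutathione transferase, had 10.06, 10.28, 10.40, 10.58 and 10.18 in knockouts and 9.86, 9.59, 9.71, 9.89 and 9.99 in wild-type mice. The groups were separate, and the difference was 0.49 ± 0.12 (SE, limma adjusted p = 0.0488), with the call lost in 8 of the 10 fits that left out 1 mouse (highest adjusted p = 0.170). Other mu-class genes had values in the same direction that did not pass. Gstm2 had 8.87, 8.44, 8.75, 8.19 and 8.27 in knockouts and 7.68, 7.10, 7.84, 7.86 and 8.08 in wild-type mice, and its difference was 0.79 ± 0.24 (SE, limma adjusted p = 0.138). Gstm6 was at 0.58 and Gstm3, chosen after its values were seen, at 0.84, and for both all knockouts lay above all wild-type mice. These genes are closely similar copies, and cross-hybridisation between their probe sets was not tested. Of 16 measured glutathione transferases and targets of the oxidant sensor NRF2, 1 passed and the list median was 0.17.

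Drug-metabolising cytochromes and targets of the xenobiotic receptors CAR and PXR numbered 23, and none passed (median 0.12). Cyp2b10, the usual reporter of CAR activity, had 7.70, 8.10, 10.26, 8.27 and 9.22 in knockouts and 7.62, 6.97, 7.12, 5.46 and 8.33 in wild-type mice. Mouse 22 was the highest and wild-type mouse 12 the lowest, the groups overlapped, and the difference was 1.61 ± 0.56 (SE, limma adjusted p = 0.196). Cyp2c55 was at 1.10 ± 0.31 (adjusted p = 0.116), with wild-type mouse 8 inside the knockout range.

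Chaperone genes had low values in knockouts that did not pass. Of 11 measured cytosolic heat shock genes 0 passed, 7 had an unadjusted p under 0.05 in the lower direction, where 5.96% of all genes lay, and the median was -0.39 against 0.04 for all genes. Hsp90aa1, the inducible HSP90, had 9.08, 8.60, 9.13, 8.87 and 8.71 in knockouts and 9.27, 9.99, 10.53, 10.18 and 9.93 in wild-type mice. The groups were separate, and the difference was -1.10 ± 0.29 (SE, limma adjusted p = 0.0854). Hsph1, another heat shock gene, had 8.64, 7.75, 8.36, 7.97 and 7.38 against 8.13, 9.28, 9.12, 9.48 and 9.11. Wild-type mouse 8 lay among the knockouts, and the difference was -1.002 ± 0.28 (SE, limma adjusted p = 0.108). Of 16 genes of the endoplasmic reticulum stress and amino acid response none passed (median -0.16). Hsp90b1, the HSP90 of that compartment, was at -0.55 ± 0.15 (adjusted p = 0.103) and its binding protein gene Hspa5 at -0.55 ± 0.19 (adjusted p = 0.189).

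Lists of lipid and glucose genes, which CB1 blockers are known to affect, had no member past the threshold, which 0.324% of all genes passed. At that share a list of this size would seldom hold a member, so the counts do not show that these genes were unaffected. Both groups received the blocker, and its own effect is not measured by this comparison. None of 19 cholesterol synthesis genes passed, and their median was -0.01. None of 22 fatty acid and triglyceride synthesis genes passed, with a median of 0.07. The same held for 25 genes of fatty acid oxidation and PPARα targets (median -0.03), 16 of bile acid synthesis and transport (0.01) and 12 of gluconeogenesis (0.18). Of the 12 gluconeogenesis genes 0 had a value below 0, and the median of all genes was 0.04. For Apob, the structural protein of very low density lipoprotein, all knockouts lay below all wild-type mice without passing (-1.003 ± 0.33, SE, limma adjusted p = 0.163). None of 18 genes of the endocannabinoid system passed. Daglb, which makes the ligand 2-arachidonoylglycerol, was at 0.27, Faah, which degrades anandamide, at 0.25, and Mgll, which degrades 2-arachidonoylglycerol, at -0.36.

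**Figure D3:**
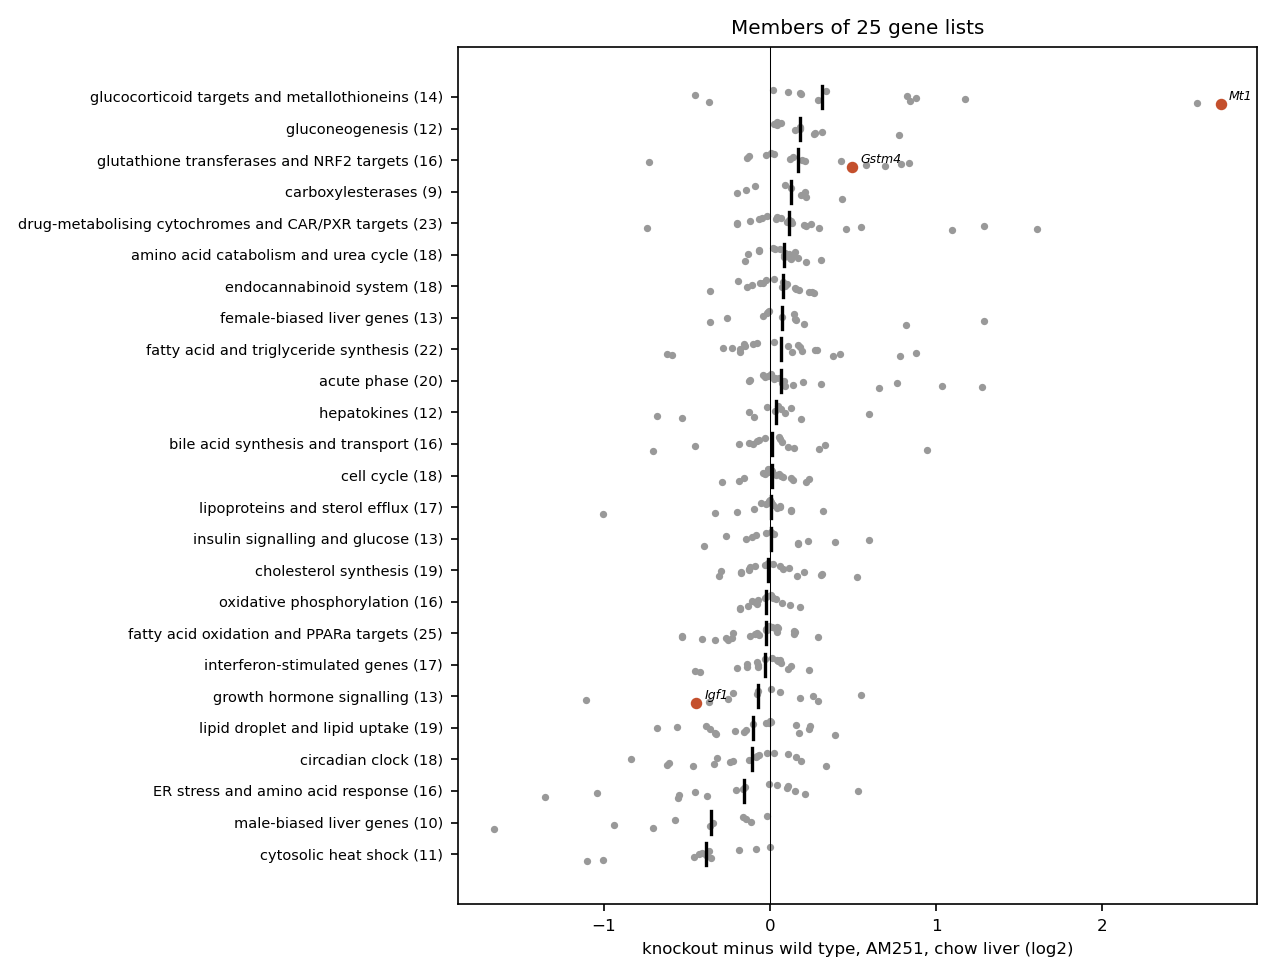
Difference between knockout and wild-type chow livers under AM251 (horizontal axis, log2) for the members of 25 gene lists, with 1 point per gene, a black bar at each list's median and the number of measured members in brackets; large red points passed the threshold. Mt1, Gstm4 and Igf1 are the members that passed, and the medians run from -0.39 (cytosolic heat shock) to 0.31 (glucocorticoid targets and metallothioneins).

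Markers of other cells in liver were read in the same arrays; in a whole tissue, fewer cells of a type and less RNA per cell cannot be told apart. None of 16 macrophage, 15 endothelial, 14 stellate cell, 9 neutrophil or 11 T and NK cell markers passed, with medians from -0.13 to 0.11. Exocrine pancreas markers, which could come from adjoining tissue, were higher than 0 in 12 of 12 cases with a median of 0.29, and 0 passed. Their summed intensity was 1434 to 2437 in knockouts and 1214 to 1603 in wild-type mice, so the ranges overlapped; their part in the results was not tested.

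Genes near Cnr1 were examined because a gene knockout can carry flanking sequence from the strain in which it was made. Among the 50 measured genes on each side of Cnr1 in RefSeq order (GRCm38.p6), 0 of 100 passed, 13 had an unadjusted p under 0.05 in the lower and 10 in the higher direction, where 5.96% and 7.64% of all genes lay. Under vehicle 8 of the 100 were lower and 2 higher at an adjusted p under 0.05, where 3.83% and 2.94% of all genes lay. Ccnc, a cyclin of the Mediator complex, was at -0.46 ± 0.14 (SE, limma adjusted p = 0.129).

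Where several probe sets measured a gene, most gave the same direction. The called genes and Mt2 had 44 other probe sets over 32 genes, and 41 had the sign of the probe set used; the exceptions were in Hnrnpa3, Rmi1 and Zranb2. Of the 41, 27 had an unadjusted p under 0.05. Others were near 0: the second probe sets of Ppp1r9a, Reps2 and Tet2 were at -0.002, -0.03 and -0.17, and those of Zkscan8 at -0.08 and -0.006. RefSeq promoters of 250 bases had a median GC content of 64.0% for the 41 lower genes matched and 64.1% for the 6 higher genes matched, against 56.0% for 15275 genes tested. Those 15275 genes were not matched to the called genes for their level in liver, and the difference was not tested.

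Vehicle-treated chow-fed mice form a comparison with no array in common, in which the receptor was absent or present without AM251. Both comparisons used a common estimate of each gene's spread from all liver arrays, so their calls are not independent of each other. There 1297 genes passed, 6.77% of all, with 734 lower in knockouts (3.83%) and 563 higher (2.94%), or 729 lower and 837 higher with quantile normalization. Of the 52 genes that were lower under AM251, 41 also passed as lower under vehicle and 49 had values below 0, with a median of -0.56. Of the 10 higher genes all had values above 0 under vehicle and 2, Mt1 and 4930590G02Rik, passed as higher. With only the 10 vehicle arrays in the fit, 3 genes passed, 1 of the 52 among them, while 46 of the 52 were lower at an unadjusted p under 0.05, as were 5.80% of all genes. With array weights 276 genes passed, 222 of them lower (1.16% of all), and 24 of the 52 passed as lower. Among the 52, those that did not pass under vehicle included Arl1 (0.01), Ube2cbp (0.27), AI463229 (-0.17), Igf1 (-0.25) and Fabp2 (-0.28). A value below 0 that missed the threshold does not show that a fall was absent.

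Single genes show the pattern. Under vehicle Ube2v2 had log2 intensities of 4.65, 4.74, 4.54, 5.52 and 5.10 in knockout mice 15 to 19 and 5.75, 5.67, 5.60, 5.66 and 5.56 in wild-type mice 1 to 5. The groups were separate, with knockout mouse 18 closest to wild type, and the difference was -0.74 (limma adjusted p = 0.000714). Eea1 had 7.62, 7.70, 7.52, 8.16 and 7.77 against 8.49, 8.37, 8.32, 8.35 and 8.54. Mouse 18 was again the highest knockout, and the difference was -0.66 (limma adjusted p = 0.000107). Mt1 under vehicle had 14.08, 11.86, 11.23, 10.58 and 11.65 in knockouts and 9.88, 8.93, 8.38, 9.52 and 8.73 in wild-type mice. Every knockout was above every wild-type mouse, unlike under AM251, and the difference was 2.79 (limma adjusted p = 0.00197). Gstm4, at 0.04, had overlapping groups under vehicle.

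Knockout vehicle mice 15 and 17 bear on this comparison. Their arrays had the lowest mean correlations with the other liver arrays, 0.983 and 0.974. Without both, 154 genes passed under vehicle, of which 117 were lower (0.611%). Of the 52 genes 17 passed as lower, the median of the 52 was -0.41, and 0 of the 10 passed as higher. When the same 2 arrays were left out of the common estimate of spread, the count under AM251 was 252, with 51 higher and 201 lower.

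The difference between the genotype effects under AM251 and under vehicle was tested directly. In limma 0 genes passed, with 1437 at an unadjusted p under 0.05. Among the 52 lower genes the median of this difference was -0.03, between -0.80 for Ube2cbp and 0.49 for Golga4. A difference that misses the threshold does not show that the effects were alike.

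**Figure D4:**
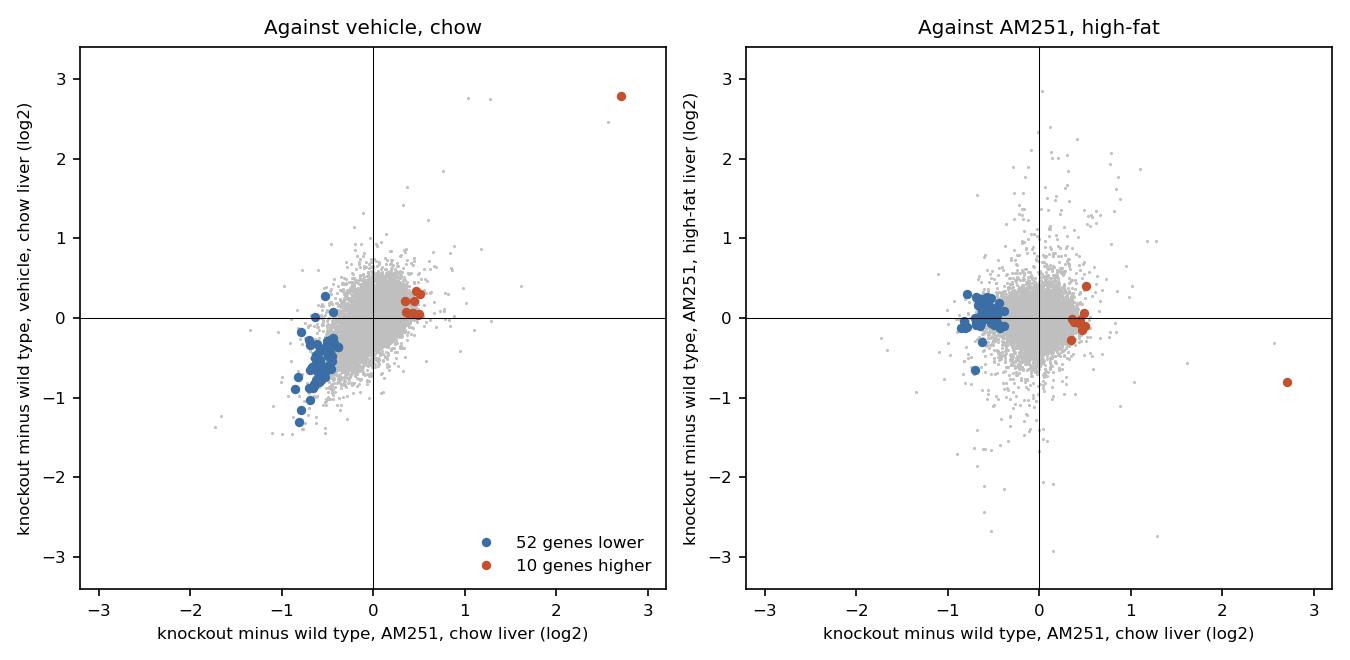
Difference between knockout and wild-type livers under AM251 on chow (horizontal axes, log2) against the same difference under vehicle on chow (left) and under AM251 on the high-fat diet (right), with 1 grey point per gene; blue points are the 52 lower and red points the 10 higher genes, chosen by the horizontal axis. On the left 49 of the 52 blue points lie below 0, and on the right 21 of 52.

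On the high-fat diet few of these genes passed in the same comparison under AM251. There 440 genes passed (2.30%), 206 higher in knockouts (1.08%) and 234 lower (1.22%). Of the 52 genes 1, Fabp2, passed as lower (-0.65 ± 0.14, SE, limma adjusted p = 0.00405), a count near the share of all genes. Values below 0 were held by 21 of the 52, and the median was 0.03. Of the 10 higher genes Epop passed as higher (0.40) and Nckap5l as lower (-0.27), and Mt1 was at -0.80 ± 0.57 (SE, limma adjusted p = 0.693). The test of the difference between diets called 159 genes (0.830%), 105 more negative on chow (0.548%) and 54 more positive (0.282%). It shares the chow arrays with the choice of the 62 genes. Within it, 19 of the 52 were more negative on chow, among them Eea1 (-0.83), Ppp1r9a (-0.95) and Tet2 (-1.08), and Mt1, Best2, Nckap5l and 4930590G02Rik were more positive.

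**Figure D5:**
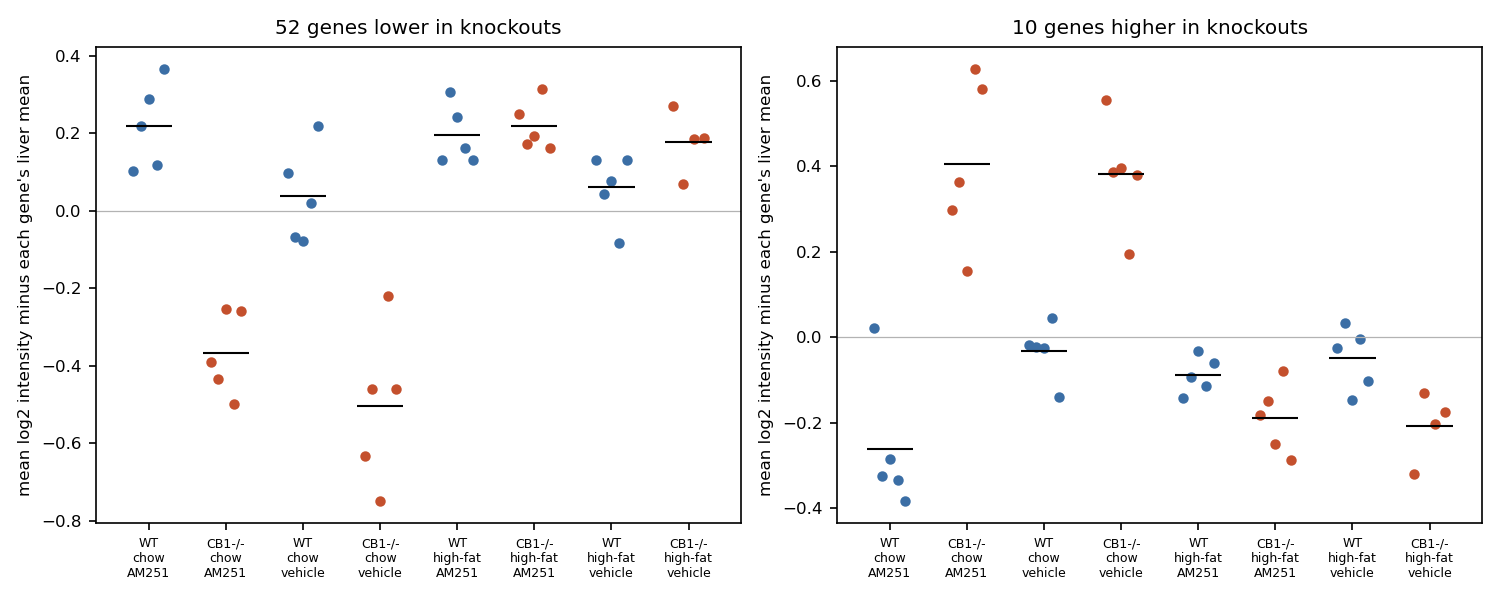
Mean over the 52 lower genes (left) and the 10 higher genes (right) of log2 intensity minus each gene's mean over all liver arrays (vertical axes), with 1 point per mouse and a line at the mean of each of the 8 liver groups; the genes were chosen on the leftmost pair of groups. For the 52 genes the chow knockouts under AM251 lie between -0.50 and -0.25 and those under vehicle between -0.75 and -0.22, and the high-fat groups have means between 0.06 and 0.22.

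The levels place the chow knockouts apart from the other 6 liver groups. The mean of the 52 genes, centred on all liver arrays, was -0.37 ± 0.11 (SD, n = 5) in AM251 knockouts and -0.50 ± 0.20 (SD, n = 5) in vehicle knockouts on chow. It was 0.22 ± 0.11 (SD, n = 5) in AM251 and 0.04 ± 0.12 (SD, n = 5) in vehicle wild-type mice. Knockouts on the high-fat diet had 0.22 ± 0.06 (SD, n = 5) under AM251 and 0.18 ± 0.08 (SD, n = 4) under vehicle. The genes were chosen on the AM251 groups on chow, so the means of those groups describe that choice and are no test of it.

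The largest differences between diets, apart from Mt1, were in genes that did not pass on chow. Fasn, fatty acid synthase, had AM251 means of 8.10 ± 0.69 (SD, n = 5) in chow knockouts and 8.07 ± 0.29 (SD, n = 5) in chow wild-type mice. On the high-fat diet it had 9.10 ± 0.28 (SD, n = 5) in knockouts and 6.25 ± 0.24 (SD, n = 5) in wild-type mice. The genotype effect was 0.03 ± 0.34 on chow and 2.85 ± 0.34 on the high-fat diet, and the difference was -2.83 ± 0.49 (SE, limma adjusted p = 0.00119). Fdps, which makes farnesyl diphosphate for sterols, showed the same order, with -0.01 on chow, 2.34 on the high-fat diet and a difference of -2.35 ± 0.31 (limma adjusted p = 1.85e-05). Nsdhl, Sqle, Mvd and Idi1, all enzymes of sterol synthesis, had chow values from -0.29 to 0.11 and high-fat values from 1.89 to 2.40. Of 19 cholesterol synthesis genes 18 were higher in high-fat knockouts, and 16 were more negative on chow in the test of the difference.

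Fatty acid oxidation genes had the opposite sign. Cyp4a14, a fatty acid omega-hydroxylase induced through PPARα, was at 0.15 ± 0.45 on chow and -2.92 ± 0.45 on the high-fat diet, a difference of 3.07 ± 0.63 (SE, limma adjusted p = 0.0100). The acyl-CoA thioesterase genes Acot1 and Acot3 were at 0.04 and 0.15 on chow and at -2.06 and -2.08 on the high-fat diet. Vnn1, a pantetheinase, was at -0.53 and -2.67. Of 25 PPARα targets 20 were lower in high-fat knockouts, and 10 were more positive on chow. Cyp2b9, a female-biased cytochrome, was at 1.29 ± 0.70 on chow, where it did not pass, and at -2.74 ± 0.70 on the high-fat diet.

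In epididymal fat of chow-fed mice under AM251, 650 genes passed (3.39%) between 3 knockouts and 5 wild-type mice, 379 higher (1.98%) and 271 lower (1.42%). Some of these mice also gave livers to the comparison above, by their numbers. Of the 52 liver genes 0 passed in fat, with a median of 0.04, and of the 10 higher genes 0 passed. Mt1 in fat had log2 intensities of 12.78, 12.98 and 12.63 in knockouts and 12.72, 12.69, 12.95, 12.93 and 12.51 in wild-type mice. The groups overlapped, with a difference of 0.03 ± 0.14 (SE, limma adjusted p = 0.926). Slc5a3 had 9.49, 8.96 and 9.81 in knockout fat and 9.06, 8.47, 8.16, 9.21 and 8.52 in wild-type fat. Its difference there was 0.73 ± 0.23 (SE, limma adjusted p = 0.0693), which did not pass.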

How the data were processed

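Total RNA of liver and fat was amplified to biotin-labelled cRNA and hybridised to 1-colour arrays, per the labels' protocols. The authors deposited 1 intensity per probe set and array, on a linear scale, made with RMA per the submitters' processing notes (version not given in the sources used here). RMA fits each probe set across arrays after background correction and quantile normalization, so differences are relative within these arrays. Array median intensities ran from 25.8 to 28.7; arrays give no read depth, and their number limits the precision. From the deposited intensities, log2 values were computed here. Of 38385 probe sets, 24478 have 1 gene symbol, 65 have several and 13842 are unnamed here. The probe set with the highest mean stood for each of 19147 genes, and 18910 were matched to RefSeq by Entrez number.

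The 39 liver arrays entered a linear model of the log2 values in limma (version 3.58.1, R version 4.3.3; data.table version 1.17.8). The 8 liver groups each had 1 mean and shared the spread, with empirical Bayes moderation, two-sided tests and Benjamini-Hochberg adjustment over all genes at 0.05. Fat (36 arrays) was fitted alone. Groups and mouse numbers come from the titles. Within a group each array carries a different mouse number, numbers recur across tissues and diets, and p-values measure the spread between these arrays. On simulated data for the AM251 comparison over 19147 genes, 66.2% of changes of 0.5, 98.8% of 1 and 100% of 2 (log2) were recovered. Of the calls in those data, 4.97% were false. Whether these rates hold for the deposited arrays, where leaving out 1 mouse gave 8 to 88 calls, was not tested.

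Named genes are Cnr1, the 15 largest falls and all 10 rises past the threshold, other called genes, the 6 largest differences between diets in each direction, up to 4 members of smallest p per list and up to 6 neighbours of Cnr1. Genes shown as single values and Gstm3 were chosen after their values were seen. The comparison, members and lists were chosen with earlier results of these data known. List genes that the annotation does not name were not analysed here. Alternatives were the groups compared alone, quantile normalization, array weights, the mean of all probe sets, removal of dim genes, another variance prior and leaving out each array. Leaving out 2 knockout vehicle arrays together was also tried. Figures were drawn with matplotlib 3.10.9 and tables made with pandas 2.3.3.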

Additional observations from a re-analysis of the deposited data

Results flagged for a closer look

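Within the 2 groups of the AM251 comparison, 104 groups of values over 52 genes were examined for a mouse far from the other 4, and 12 had one; chance gives about 1 in 20. Wild-type mouse 8 was highest for Mt1 (10.94) and Mt2 (9.71) and lowest for Aox3 (11.57) and Hsph1 (8.13), each time toward the knockouts. Wild-type mouse 13 was highest for Taok1 (7.45) and Ppp1r9a (7.63) and lowest for Best2 (3.70), each time away from the knockouts. Wild-type mouse 11 (7.72) and knockout mouse 24 (6.78) were highest for AI463229. Knockout mouse 23 was lowest for Hnrnpa3 (7.81), knockout mouse 22 for Nuak1 (6.59) and knockout mouse 24 for Sqle (9.34).

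The genotype effect under AM251 differed between chow and high-fat diet by limma's test of the difference. It was more negative on chow for Fasn (-2.83), Fdps (-2.35), Nsdhl (-2.28), Sqle (-2.20), Mvd (-2.18) and Idi1 (-2.01). It was more positive on chow for Cyp2b9 (4.02), Mt1 (3.51), Cyp4a14 (3.07), Acot3 (2.23), Vnn1 (2.14) and Acot1 (2.10).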

How the results depend on the processing

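No called gene named in the text changed direction under any alternative run. The median of the growth hormone list, -0.07, was 0.11 and 0.09 without knockout mouse 24 or wild-type mouse 12, the macrophage median, -0.13, was 0.11 without knockout mouse 21, and other list medians near 0 also changed sign. The balance under vehicle, 563 higher and 734 lower, was 837 and 729 with quantile normalization and 1011 and 980 without knockout mouse 18. The count under AM251 on chow, 62, was 96 with only the groups compared in the fit (5 higher, 91 lower, 32 of them among the 62), 275 with array weights (69 and 206, with all 62 among them) and 252 without knockout vehicle mice 15 and 17. Quantile normalization gave 61 (14 and 47), the mean of all probe sets 66, removal of dim genes 77 of 11401 and another variance prior 60. Leaving out 1 mouse gave 8 to 88. The genes Ube2v2, Eea1, Pggt1b and Taok1 passed in each of these settings. Of 870 values of single genes with 1 mouse left out, 332 kept their direction and missed the threshold. Under vehicle, 1297 became 3, 276 and 154 in the first 3 settings, and 595 (without knockout mouse 17) to 1991 (without knockout mouse 18) when 1 mouse was left out. For the difference between AM251 and vehicle, 0 became 1 without mice 15 and 17, and 0 to 2 when 1 mouse was left out. On the high-fat diet, 440 became 834 with array weights and 291 (without wild-type mouse 38) to 455. For the difference between diets, 159 became 379 with only the groups compared, 574 with array weights, and 89 to 185 when 1 mouse was left out, with 89 without high-fat knockout mouse 48, 91 without high-fat wild-type mouse 39, 92 without chow wild-type mouse 13 and 105 without chow knockout mouse 23. For the AM251 comparison on chow, fitting only the groups compared or leaving out mice 15 and 17 changed the estimated spread and not the differences. The cause of the other shifts was not tested. No paired analysis was possible because the 2 groups compared share no mouse number in the labels.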
